A study of Mus musculus with 18 samples.

Results

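The nuclear genes that encode subunits of respiratory complexes II to V were followed in retinal RNA of diabetic and normoglycemic mice, with and without the antioxidant NACET. They were chosen by symbol: Sdha to Sdhd, every symbol that begins with Uqcr or Atp5, and every symbol that begins with Cox4 to Cox8 followed by a letter. The rule found 50 of the 35006 gene names in the count files. Of these, 4 belong to complex II, 8 to complex III, 18 to complex IV and 17 to complex V. The other 3, Atp5s, Atp5sl and Cox4nb, share the spelling but encode no subunit. Cytochrome c1 (Cyc1), a subunit of complex III, and Ndufa4, now counted with complex IV, are not matched by the rule and are given with the other pathway genes. The study crossed genotype with treatment in 18 poly(A) RNA-seq libraries from retinas of male mice aged 24 weeks. WT mice (C57BL/6J) were normoglycemic, and Akita mice (C57BL/6-Ins2Akita/J) carry 1 mutant copy of the insulin gene Ins2 and become diabetic. NACET, the ethyl ester of N-acetylcysteine, was dissolved in drinking water (0.33 mg/mL), a dose of 50 mg/kg per day, from week 4 to week 24, and control mice drank water. There were 3 WT, 6 WT + NACET, 4 Akita and 5 Akita + NACET libraries. Akita is a monogenic model in which β cells are lost, and only males were used. The labels give no animal for each library, so the p-values measure the spread between libraries.

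The inner mitochondrial membrane carries the respiratory chain, which passes electrons to oxygen and pumps protons, and the ATP synthase, which uses the proton gradient to make ATP. Complex II (succinate dehydrogenase) feeds electrons from the citric acid cycle to ubiquinone, complex III passes them to cytochrome c, complex IV reduces oxygen to water, and complex V is the ATP synthase. Complex II is encoded wholly in the nucleus, whereas complexes III, IV and V combine nuclear subunits with a few that mitochondrial DNA encodes. Photoreceptors are among the most energy-demanding cells known, and most mitochondria of the mouse retina lie in their inner segments.

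The 18 libraries held between 11495596 and 17814479 gene counts, of which 0.667 to 0.983% fell in the 50 genes. A level is given below as CPM, counts per 1000000 gene counts with library sizes scaled by the TMM method, which sets the typical gene equal between libraries. The level of a list is the sum of its genes. Rod markers were abundant in every library, with 10 of 10 listed genes tested and a summed level of 87912 to 207652 CPM. Lens markers ranged from 1.74 to 23249 CPM, with the highest value in WT + NACET 5, and pigment epithelium markers from 65.0 to 1509 CPM. The share of reads outside annotated exons differed between the groups. It was 14.9 to 17.1% in WT, 9.55 to 16.5% in WT + NACET, 9.67 to 13.3% in Akita and 14.3 to 19.8% in Akita + NACET. Libraries Akita 4, with the lowest scaling factor (0.803), and Akita + NACET 5, with the highest (1.13) and the highest share outside exons, stood apart from their groups. Counts of called genes among the 50 are also given without them.

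Levels of different genes were compared per kilobase of transcript. By this scale Cox4i1, the main form of subunit 4 of complex IV, was the most abundant of the 50 with a mean of 1023 CPM per kb over all libraries. Atp5b, the catalytic beta subunit of the ATP synthase, followed with 717 CPM per kb, and Uqcrq, a small subunit of complex III, reached 703 CPM per kb. Sdha, the flavoprotein of complex II, had the highest level of its complex with 211 CPM per kb. Several low levels were not comparable with these, because reads that aligned to several places had not been counted. Of all 50-base windows of the transcript, 100% had an identical copy elsewhere in the genome for Atp5g2, 89.4% for Atp5l, 86.8% for Atp5g1, 71.5% for Cox7c, 66.3% for Atp5h, 62.7% for Cox5b and 61.5% for Uqcrb. Atp5g2, for example, was counted at 0.768 CPM per kb, whereas Atp5g3, which encodes the same mature subunit c, stood at 341 CPM per kb. The levels of these genes, and differences between groups that rest on them, are therefore uncertain. Without strand information, reads of Atp5o and Cox5a could also not be told apart from overlapping genes over 44.0% and 38.7% of their exon bases.

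Of the 50 genes, 46 passed the filter on low counts. The 4 that did not were Cox6a2, Cox7b2 and Cox8c, isoforms known from muscle or testis, and Atp5l-ps1, a copy of Atp5l. Cox6a2 had 0 to 11 reads per library, Cox7b2 0 to 6, and Cox8c and Atp5l-ps1 at most 1. The 38 genes that remained after leaving out the tissue-restricted isoforms, Atp5l2 and Atp5l-ps1 (2 relatives of Atp5l) and the 3 that encode no subunit are called core subunits here, and all 38 of them passed the filter.

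Promoter sequences are described first, and whether they bear on the levels given below was not tested. Nuclear respiratory factor 1 and ETS factors such as GABP are known to activate many of these genes. RefSeq windows on build GRCm38.p6, from 250 bases before to 50 bases after the start, were found for 37 of the 50 genes (41 windows). The letters GCGCNTGCG of the nuclear respiratory factor 1 motif, searched on both strands, stood in 16 of the 41 windows (39.0%) and in 8.61% of the 21263 windows of all protein-coding genes. The ETS letters CCGGAAG stood in 29.3% of the 41 windows and in 11.6% of all windows. The YY1 letters AAGATGGC stood in 12.2% and 3.05%, and the SP1 letters GGGCGGG in 29.3% and 33.9%. The letters TGACNNNGC, which cover most of the antioxidant response element bound by NRF2, a transcription factor of the oxidative stress response, stood in 4.88% of the 41 windows and 13.0% of all windows. Matches to different motifs were counted separately even where they overlap. Windows of 1 gene can overlap too, and 1 match in Atp5sl, which encodes no subunit, lies in 2 windows for the nuclear respiratory factor 1 letters and likewise for those of YY1, so that 15 and 4 genes hold them. The following 30-base stretches show, in capitals, the nuclear respiratory factor 1 letters on either strand in the 7 genes that carried them and were downregulated in Akita + NACET vs Akita. The last 2 lines show the ETS letters of Cox8a and Atp5j. Each is written 5′ to 3′ on the strand of its gene.
Sdha (minus strand, chr13:74350275-74350304): gggcgtgttgCGCAGGCGCagaatcttcca
Sdhd (minus strand, chr9:50603908-50603937): cgctggggtgCGCACGCGCggtggcagcgc
Uqcrc1 (plus strand, chr9:108936643-108936672): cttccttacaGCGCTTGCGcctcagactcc
Cox6a1 (minus strand, chr5:115349055-115349084): ggataaagtgCGCAGGCGCtggagttccta
Atp5d (plus strand, chr10:80142322-80142351): agaatcctgtGCGCGTGCGttcttgtggga
Atp5g3 (minus strand, chr2:73911295-73911324): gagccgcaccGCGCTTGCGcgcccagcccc
Atp5o (minus strand, chr16:91931602-91931631): gctggcgcgcGCGCGTGCGctctggcgcca
Cox8a (minus strand, chr19:7217603-7217632): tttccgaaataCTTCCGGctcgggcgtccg
Atp5j (minus strand, chr16:84835019-84835048): agctgagggacCCGGAAGcacttaccctcc
Sdha carried 3 matches to the nuclear respiratory factor 1 letters within the window, at -97, -54 and -9 from the start, of which the one at -54 is shown. The annotated start of Atp5j lies 700 bases from that of Gabpa, the gene of the DNA-binding GABP subunit, in mm9. A match is a run of letters and not a measured binding site.

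Complexes II to V all had their lowest mean level in Akita + NACET. The summed level of complex II was 1025 ± 39.6 CPM (SD, n = 3) in WT, 1131 ± 72.1 (n = 6) in WT + NACET, 1232 ± 94.7 (n = 4) in Akita and 1002 ± 87.0 (n = 5) in Akita + NACET. Complex III stood at 1629.6 ± 44.5, 1877 ± 187, 1887 ± 102 and 1517 ± 187 CPM in the same order. The 11 main isoforms of complex IV summed to 1903 ± 40.1, 2144 ± 211, 2085 ± 172 and 1709 ± 317 CPM, and complex V to 3498 ± 176, 3954 ± 361, 4244 ± 180.1 and 3234 ± 527 CPM. In each complex WT lay below both WT + NACET and Akita, and these sums are given as a description, with no test. Every Akita library lay above every Akita + NACET library in complexes II, III and V, but not in complex IV, where Akita 4 had 1844 CPM and Akita + NACET 3 had 2040.2 CPM. Before scaling, the 50 genes took 0.783 to 0.950% of gene counts in Akita and 0.667 to 0.891% in Akita + NACET, and these ranges overlapped through Akita 4. The summed level of 10 rod photoreceptor markers moved the same way, with 95199.9 to 130027 CPM in WT, 118484 to 157592 in WT + NACET, 136645 to 207652 in Akita and 87912 to 119193 in Akita + NACET. Pigment epithelium markers did not follow the order of the subunits, with 325 ± 255 CPM in WT, 924 ± 403 in WT + NACET, 121 ± 76.9 in Akita and 449.8 ± 290.5 in Akita + NACET (mean ± SD), and 0 of 8 were called for genotype alone or for NACET in either genotype. In whole retina, fewer cells of a type and less RNA per cell cannot be told apart, and the part of cell composition in the subunit levels was not tested.

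**Figure D1:**
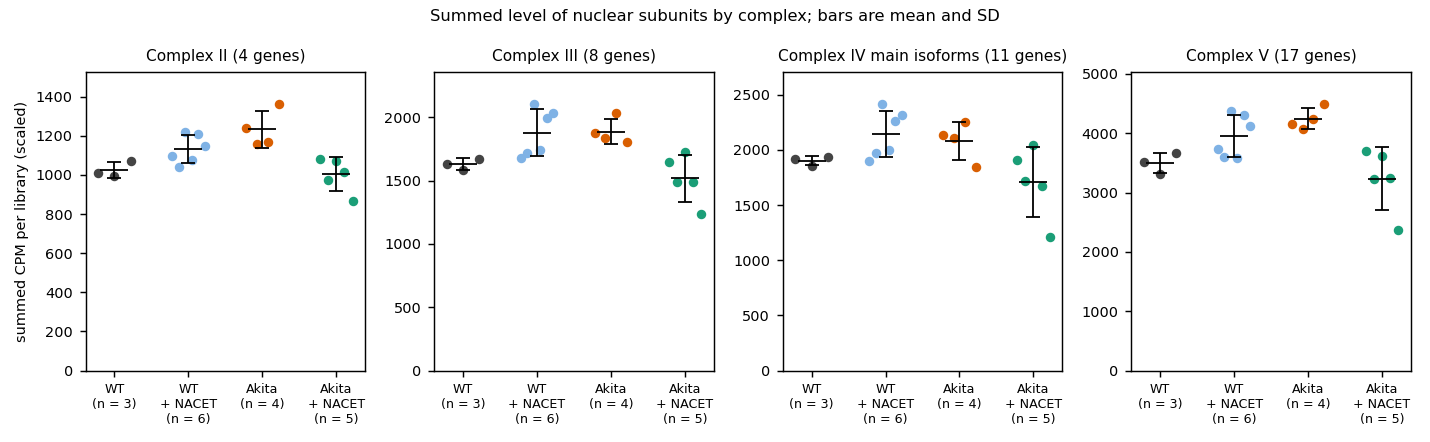
Summed scaled CPM of the nuclear subunits of complexes II, III, IV (main isoforms) and V, with 1 point per library and bars for mean and SD in the 4 groups. Akita + NACET has the lowest mean in each panel, and Akita + NACET 5 is the lowest point of each.

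The core subunits moved together from library to library. Over the 18 libraries the median Pearson correlation between pairs of the 38 genes was 0.817 (703 pairs, 95.4% above 0), a description in which all pairs share libraries and scaling. Akita + NACET 5 was the lowest library for 34 of the 38 genes, with a median deviation of -0.52 (log2) from the genes' means. WT + NACET 3 was the highest for 14, WT + NACET 6 for 10, and WT + NACET 5 and Akita 3 for 5 each. The genes that correlated least with the median of the 38 were Atp5g2 (r = -0.16), which had few reads, Cox7c (r = 0.37) and Sdha (r = 0.43). Sdha was highest in Akita 4, where the main subunits of complex IV were the lowest of the Akita group.

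**Figure D2:**
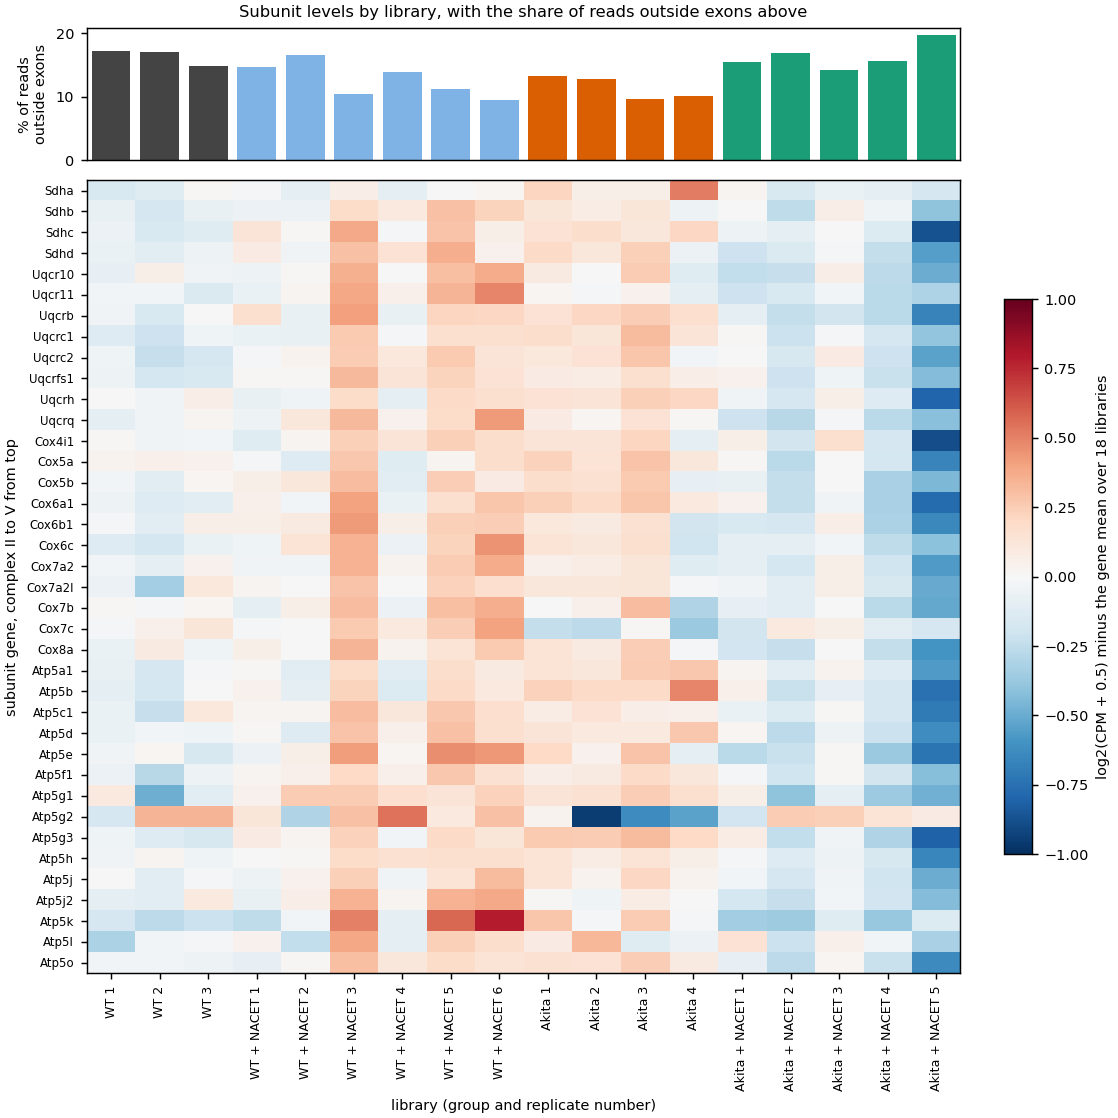
Log2(CPM + 0.5) of the 38 core subunit genes in 18 libraries, centred on each gene's mean (red above, blue below), under bars of the share of reads outside exons in %. Akita + NACET 5 is blue for nearly all genes and has the tallest bar.

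The share of reads outside exons moved with this pattern. The 4 libraries with the largest median deviation upward, WT + NACET 3, WT + NACET 5, Akita 3 and WT + NACET 6, had 10.4, 11.3, 9.67 and 9.55% of reads outside exons, and the 3 with the largest deviation downward, Akita + NACET 5, 2 and 4, had 19.8, 16.9 and 15.7%. Some libraries did not follow. Akita 4 had a share of 10.2% and a median deviation of 0.0082, WT + NACET 2 had 16.5% and 0.0087, and WT 1 had 17.1% and -0.055. When the share was added to the fit as a covariate, 0 of 46 genes were called in each of the 6 comparisons described below, and the median log2 fold change of the 46 in Akita + NACET vs Akita moved from -0.28 to -0.058. The median of the interaction described below moved from -0.49 to -0.073. In Akita + NACET vs WT + NACET it moved from -0.32 to -0.15, with 39 of 46 estimates still below 0. In Akita + NACET vs WT it stayed at -0.13, with 41 of 46 below 0. Over all genes, 0 were then called in Akita + NACET vs Akita and 194 in Akita + NACET vs WT + NACET. The share moves with the groups, so its part and that of genotype and treatment cannot be told apart.

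**Figure D3:**
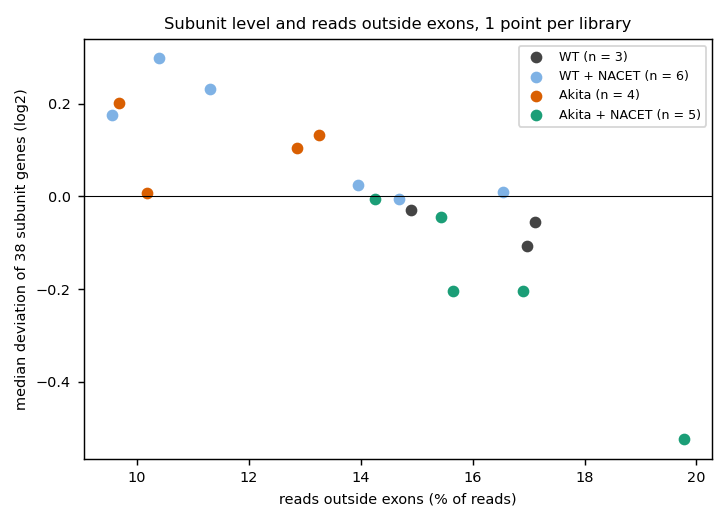
Median deviation (log2) of the 38 core subunit genes from their means against the share of reads outside exons in %, with 1 point per library, coloured by group. The points run from upper left to lower right, with Akita 4 below this course at 10.2% and Akita + NACET 5 lowest, at -0.52 and 19.8%.

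To see which single genes differed between groups, the edgeR quasi-likelihood test was fitted to all 16183 genes that passed the filter, and a gene counted as a DEG where its adjusted p was 0.05 or less. In Akita vs WT, 1 of the 46 tested genes was upregulated (Cox7a1) and 0 were downregulated, where 3.96% of all genes rose and 3.68% fell. Nevertheless 42 of 46 estimates were above 0, with a median log2 fold change of 0.17 against -0.015 over all genes, but with the covariate for reads outside exons the median turned to -0.058 and 30 of 46 estimates were below 0. In Akita + NACET vs Akita, 0 genes were upregulated and 13 were downregulated, or 28.3% of the 46, where 4.51% of all genes rose and 5.14% fell. The 13 were Sdha and Sdhd in complex II, Uqcrb and Uqcrc1 in complex III, Cox5a, Cox5b, Cox6a1 and Cox8a in complex IV, and Atp5b, Atp5d, Atp5g1, Atp5g3 and Atp5o in complex V. Here 43 of 46 estimates were below 0, with a median of -0.28 against -0.0032 over all genes. Both comparisons use the same Akita libraries. In WT + NACET vs WT, 0 of 46 were called, where 0.859% of all genes rose and 0.624% fell. There 45 of 46 estimates were above 0, with a median of 0.21, whereas with the covariate the median was 0.011 and 21 of 46 were below 0. In the fit without it, 12 of the 46 genes had an unadjusted p under 0.05, and DESeq2 called 0 as well. In Akita + NACET vs WT, 0 of 46 were called in either direction, where 0% of all genes rose and 0.00618% fell, the median estimate was -0.13, 3 of the 46 genes had an unadjusted p under 0.05, and DESeq2 called 0.

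The count in Akita + NACET vs Akita depended on single libraries. It was 0 without Akita 4, 1 without Akita + NACET 5, 1 without Akita + NACET 2, 4 without Akita 3 or Akita + NACET 4, 6 without WT 3, 24 without Akita + NACET 3 and 0 without both libraries that stood apart. Without Akita 1 there were 3 lower genes (Atp5b, Atp5g3 and Uqcrb) and 1 higher (Atp5g2). Uqcrb was also called without Akita + NACET 2, Akita 3, Akita + NACET 4 or WT 3, and Atp5g3 was the 1 gene called without Akita + NACET 5. Without Akita 4 only 1 gene of all those tested was called, and the log2 fold changes of the 13 genes lay between -0.51 and -0.20.

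**Figure D4:**
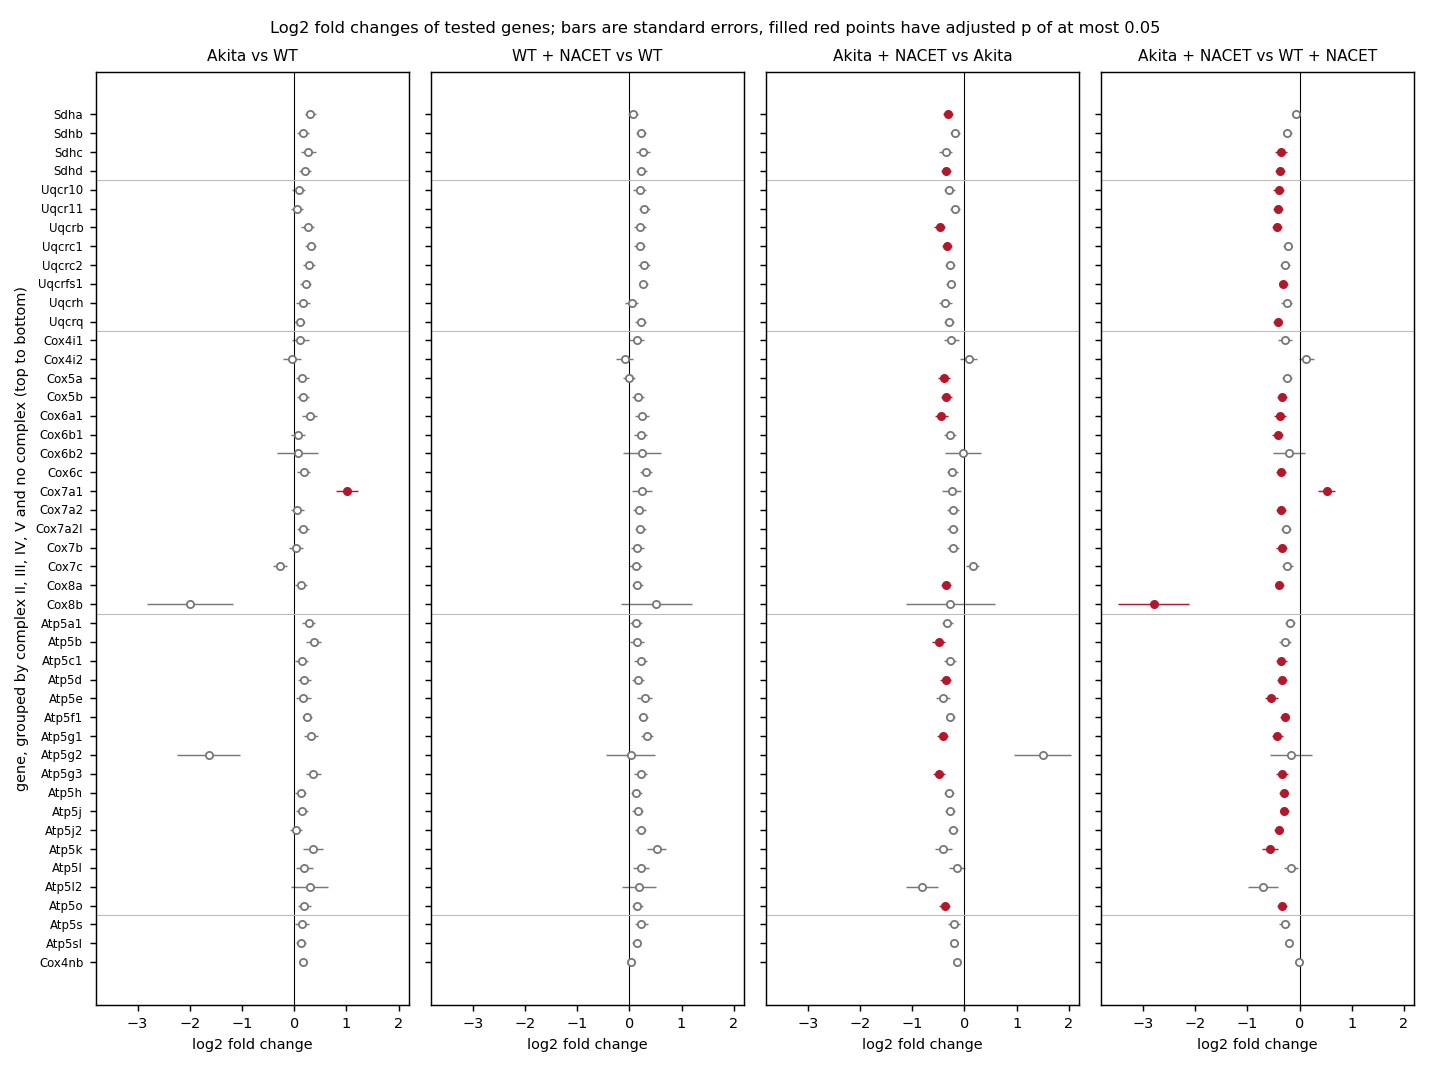
Log2 fold changes with standard errors of the 46 tested genes in 4 comparisons, grouped by complex, with filled red points for an adjusted p of at most 0.05. Most estimates are above 0 in Akita vs WT and WT + NACET vs WT and below 0 in the other panels, where 13 and 26 genes are called as lower, and Cox7a1 is the 1 gene called as higher in Akita vs WT and in Akita + NACET vs WT + NACET.

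Complex II has 4 genes. Sdha, the flavoprotein that oxidises succinate (chr13:74459702-74487728 in mm9), was measured at 548, 559.6 and 614 CPM in WT, 569 to 637 with a median of 606 CPM in WT + NACET, 707, 633, 634 and 871 CPM in Akita and 622, 547, 581, 571 and 543 CPM in Akita + NACET. Every Akita library lay above every library of WT and of Akita + NACET, and Akita 4 was far above the rest. Sdha fell in Akita + NACET vs Akita (log2 fold change -0.31, SE 0.09, adjusted p = 0.0405), and its estimate in Akita vs WT was not called (log2 fold change 0.31, SE 0.11, adjusted p = 0.0730). Sdhd, which with Sdhc anchors the complex in the membrane (chr9:50404443-50411954), had 117, 114 and 118 CPM in WT, 119.6 to 158 with a median of 133 CPM in WT + NACET, 139.99, 133, 145 and 118 CPM in Akita and 106, 111, 121, 104 and 83.3 CPM in Akita + NACET. Akita 4 overlapped Akita + NACET, and Akita + NACET 5 was the lowest library. Sdhd fell in Akita + NACET vs Akita (log2 fold change -0.35, SE 0.10, adjusted p = 0.0343). Sdhb, the iron-sulfur subunit, had 207, 194 and 207 CPM in WT, 209 to 268 with a median of 239.7 CPM in WT + NACET, 236, 229, 237 and 210.2 CPM in Akita and 219, 182, 228, 211 and 165 CPM in Akita + NACET, and it was not called there (adjusted p = 0.214). Sdhc had 136, 128 and 131 CPM in WT, 141 to 185 with a median of 152 CPM in WT + NACET, 157, 161, 154 and 164 CPM in Akita and 137, 133, 142, 129 and 77.4 CPM in Akita + NACET. The Akita libraries did not overlap those of Akita + NACET for Sdhc, yet its adjusted p was 0.0691, and 1 library, Akita + NACET 5, lay far below the others.

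Complex III was represented by 2 core proteins, the Rieske protein and 5 small subunits. Uqcrb, a small subunit at the ubiquinone-binding site (chr13:67001553-67006314), had the smallest p of the complex in Akita + NACET vs Akita. It was measured at 70.1, 64.6 and 72.0 CPM in WT, 68.2 to 95.3 with a median of 81.6 CPM in WT + NACET, 79.5, 83.0, 85.2 and 80.8 CPM in Akita and 67.5, 60.8, 63.1, 59.5 and 45.1 CPM in Akita + NACET, with no overlap between Akita and Akita + NACET (log2 fold change -0.47, SE 0.11, adjusted p = 0.0203). Uqcrc1, core protein 1 (chr9:108838661-108851685), had 499, 471 and 530.3 CPM in WT, 517 to 652 with a median of 573 CPM in WT + NACET, 615, 594, 677 and 597 CPM in Akita and 549.8, 470.3, 537, 485 and 415 CPM in Akita + NACET. It fell in Akita + NACET vs Akita (log2 fold change -0.34, SE 0.10, adjusted p = 0.0359), again without overlap, while its higher level in Akita than in WT was not called (log2 fold change 0.31, SE 0.11, adjusted p = 0.0804). The other genes of the complex did not pass the test for genotype alone or for NACET in either genotype. Uqcrc2, core protein 2, had 191, 167 and 176 CPM in WT, 195 to 236 with a median of 213 CPM in WT + NACET, 212, 218, 238 and 194 CPM in Akita and 197, 176, 209, 171 and 136 CPM in Akita + NACET. Uqcrfs1, the Rieske iron-sulfur protein, had 176, 162 and 164 CPM in WT and 184 to 229 with a median of 201 CPM in WT + NACET, groups that did not overlap (adjusted p = 0.134), against 193, 192, 204 and 191 CPM in Akita and 188, 158, 177, 156 and 135 CPM in Akita + NACET. Uqcr11 had 66.1, 66.2 and 61.1 CPM in WT, 64.3 to 94.7 with a median of 77.6 CPM in WT + NACET, 68.2, 66.5, 69.5 and 62.9 CPM in Akita and 58.2, 60.5, 65.9, 55.7 and 54.4 CPM in Akita + NACET, and WT + NACET 3, 5 and 6 stood above the other libraries. Uqcrq, the most abundant small subunit, had 264, 274 and 287 CPM in WT, 271 to 378 with a median of 313 CPM in WT + NACET, 298, 286, 312 and 284 CPM in Akita and 243, 232, 279, 234 and 211 CPM in Akita + NACET, and it just missed the threshold in Akita + NACET vs Akita (adjusted p = 0.0530).

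Complex IV, cytochrome c oxidase, holds 11 main nuclear genes and 7 isoforms restricted to certain tissues. Cox5a, an early-assembling subunit (chr9:57369039-57380231), had 99.8, 101 and 101 CPM in WT, 89.2 to 118 with a median of 98.1 CPM in WT + NACET, 114, 107, 119 and 106 CPM in Akita and 98.6, 81.0, 97.4, 86.4 and 61.5 CPM in Akita + NACET. The Akita libraries lay above all Akita + NACET libraries, and Cox5a fell (log2 fold change -0.39, SE 0.11, adjusted p = 0.0336). Cox8a, the common form of subunit 8, had 184, 206 and 187 CPM in WT, 193 to 244 with a median of 207 CPM in WT + NACET, 212, 205, 228 and 189.8 CPM in Akita and 169, 164, 192, 163 and 127 CPM in Akita + NACET. It fell in the same comparison (log2 fold change -0.36, SE 0.10, adjusted p = 0.0336), though Akita 4 and Akita + NACET 3 crossed. Cox5b and Cox6a1 also fell (log2 fold changes -0.35 and -0.44, adjusted p = 0.0397 and 0.0348). Cox4i1 had 691, 668 and 674 CPM in WT, 632 to 809 with a median of 761 CPM in WT + NACET, 749.6, 749, 796 and 640.3 CPM in Akita and 715, 603, 767, 611 and 371 CPM in Akita + NACET, where Akita + NACET 5 lay far below every other library, and it was not called (adjusted p = 0.241). Cox6c had 108, 104 and 113 CPM in WT and 113 to 161 with a median of 134 CPM in WT + NACET, groups that did not overlap (adjusted p = 0.146), against 129.8, 128, 132 and 103 CPM in Akita and 111, 109.98, 116, 98.8 and 88.5 CPM in Akita + NACET. Cox7a2l, which takes part in joining complexes III and IV into supercomplexes, had 126, 104 and 141 CPM in WT, 132 to 159.8 with a median of 141 CPM in WT + NACET, 142, 142, 143 and 129.6 CPM in Akita and 128, 122, 137, 117 and 92.5 CPM in Akita + NACET, with the first 3 Akita libraries close together and Akita 4 below them. In Akita 4 the main isoforms of complex IV were the lowest of their group, while the summed levels of complexes II and V were the highest. Single genes of complexes II and V were split. Sdha, Sdhc, Atp5a1, Atp5b and Atp5d were the highest of the Akita group in Akita 4. Sdhb, Sdhd, Atp5c1, Atp5e, Atp5g3, Atp5h, Atp5j, Atp5k and Atp5o were the lowest there.

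Cox7a1, the form of subunit 7A known from heart and skeletal muscle (chr7:30969190-30971047 in mm9), was the exception among the 46 genes. It had 4.95, 5.596 and 6.32 CPM in WT, 4.97 to 8.27 with a median of 6.72 CPM in WT + NACET, 15.0, 10.7, 8.04 and 11.6 CPM in Akita and 10.5, 9.67, 10.9, 8.70 and 7.84 CPM in Akita + NACET, from 69 to 214 reads per library. Every Akita library lay above every WT library, and so did every Akita + NACET library. Cox7a1 rose in Akita vs WT (log2 fold change 1.005, SE 0.21, adjusted p = 0.0165) and was higher in Akita + NACET than in WT + NACET (log2 fold change 0.52, SE 0.16, adjusted p = 0.0422), where all other called genes of the 46 were lower. These 2 comparisons share no libraries, though all 4 groups entered 1 fit. The call in Akita vs WT was lost without WT 1 or WT 2, where 0 genes of all those tested were called, with only the 2 groups in the fit and with the share outside exons as a covariate, and it was kept without Akita 4 (adjusted p = 0.0466). The call in Akita + NACET vs WT + NACET was lost in 11 of 28 alternatives, among them leaving out Akita + NACET 5 (adjusted p = 0.0536), and its estimate stayed above 0 in all 28. NACET did not change it past the threshold in Akita (log2 fold change -0.25, SE 0.18, adjusted p = 0.376) or in WT (adjusted p = 0.517). Against Cox7a2, the common form, which had 166 to 181 CPM in WT and 162 to 192 CPM in Akita, the muscle form was the rarer. Per length, Cox7a1 stood at 15.5 and Cox7a2 at 230.01 CPM per kb in WT, and at 31.1 and 239.9 CPM per kb in Akita. Without a correction for length, there were 2.87, 3.37 and 3.48 Cox7a1 reads per 100 Cox7a2 reads in WT, 2.89 to 3.75 with a median of 3.27 in WT + NACET, 8.19, 5.73, 4.19 and 7.14 in Akita and 6.40, 6.18, 5.94, 5.67 and 6.59 in Akita + NACET. The lowest ratio of the 9 Akita libraries was above the highest of the 9 WT libraries, a ratio that does not depend on library scaling. In the treated groups the ratio rests on both genes. Cox7a2 had 172 to 229 CPM in WT + NACET and 119 to 184 CPM in Akita + NACET. The Cox7a1 levels of these 2 groups overlapped, with up to 8.27 CPM in WT + NACET and down to 7.84 CPM in Akita + NACET.

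Markers of striated muscle were low in every library. The 13 listed genes summed to 57.2 to 75.4 CPM in WT, 42.5 to 74.9 in WT + NACET, 32.6 to 75.4 in Akita and 39.0 to 69.6 in Akita + NACET, only 4 of them passed the filter and 0 of these 4 were called in any comparison. Most of each sum was Pvalb, which retinal neurons also express, with 22.4 to 69.1 CPM. Among the defining genes Acta1 had at most 3.60 CPM, Ckm at most 1.998 CPM and Myh1 at most 0.160 CPM, each in WT 2. Pericyte and smooth muscle markers summed to 39.4 to 61.1 CPM in WT, 56.7 to 128 in WT + NACET, 25.6 to 50.7 in Akita and 43.4 to 64.4 in Akita + NACET. The part of these cells in the Cox7a1 levels was not tested.

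**Figure D5:**
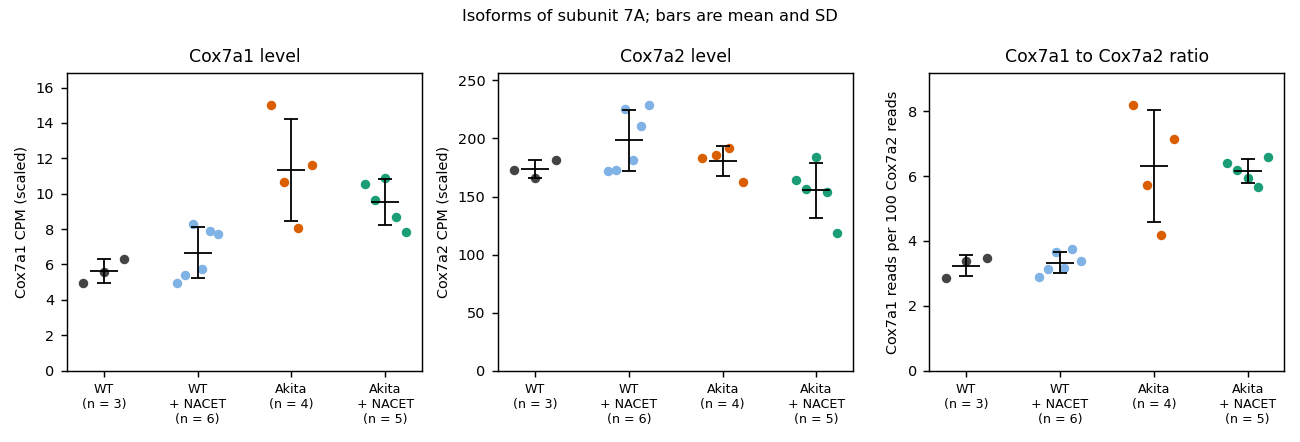
Scaled CPM of Cox7a1 and of Cox7a2, and Cox7a1 reads per 100 Cox7a2 reads, with 1 point per library and bars for mean and SD in the 4 groups. The ratio is 2.87 to 3.75 in the WT and WT + NACET libraries and 4.19 to 8.19 in the Akita and Akita + NACET libraries.

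The other restricted isoforms were low. Cox8b, known from heart, muscle and brown fat, had 0.431, 6.71 and 0.903 CPM in WT, 1.75 to 10.04 with a median of 2.65 CPM in WT + NACET, 0.771, 0.579, 0.942 and 0.249 CPM in Akita and 0.413, 0.530, 1.02, 0.311 and 0.392 CPM in Akita + NACET. WT 2 and WT + NACET 5 stood far above the others, and WT + NACET and Akita + NACET did not overlap. Cox8b was lower in Akita + NACET than in WT + NACET (log2 fold change -2.80, SE 0.68, adjusted p = 0.0158), at counts of 5 to 16 against 23 to 169 reads, and it was not called in Akita vs WT (adjusted p = 0.131). WT 2 had the highest Acta1, Ckm and Myl1 of all libraries and WT + NACET 5 the highest lens and pericyte sums, and their part in the Cox8b levels was not tested. Cox4i2, a form of subunit 4 known from lung and vessels and as oxygen-responsive, had 39.3, 34.4 and 33.8 CPM in WT, 26.3 to 41.2 with a median of 31.6 CPM in WT + NACET, 42.1, 38.7, 36.2 and 21.7 CPM in Akita and 31.5, 37.7, 43.6, 37.1 and 33.6 CPM in Akita + NACET, with all 4 groups overlapping and an adjusted p of at least 0.571 in the 3 comparisons of treatment or genotype alone and in Akita + NACET vs WT + NACET. Cox6b2, known from testis, had 2.44, 6.32 and 1.57 CPM in WT, 2.72 to 6.30 with a median of 3.85 CPM in WT + NACET, 3.58, 3.42, 5.34 and 1.74 CPM in Akita and 3.24, 3.30, 4.72, 3.54 and 2.61 CPM in Akita + NACET, again with overlap throughout.

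Complex V had 5 genes that fell in Akita + NACET vs Akita among its 16 tested, where 5.14% of all genes fell. Its catalytic F1 head is built from alpha, beta, gamma, delta and epsilon subunits. Atp5b, the beta subunit (chr10:127520329-127527447), had 1268, 1198 and 1356 CPM in WT, 1229 to 1578 with a median of 1423 CPM in WT + NACET, 1588, 1547, 1549 and 1902 CPM in Akita and 1401, 1160.2, 1276, 1206 and 809 CPM in Akita + NACET. Akita lay above Akita + NACET without overlap, with Akita 4 the highest and Akita + NACET 5 the lowest library of the series, and Atp5b fell (log2 fold change -0.49, SE 0.13, adjusted p = 0.0250). Atp5d, the delta subunit, fell as well (log2 fold change -0.36, adjusted p = 0.0405). Subunit c forms the proton-driven ring and is encoded by 3 genes. Atp5g3 (chr2:73746504-73749383) had 233, 219.5 and 215 CPM in WT, 235 to 281 with a median of 257 CPM in WT + NACET, 288, 286, 299 and 276 CPM in Akita and 253, 202, 235, 194 and 137 CPM in Akita + NACET, without overlap between the last 2 groups, and it fell (log2 fold change -0.49, SE 0.12, adjusted p = 0.0216). Atp5g1 (chr11:95930166-95936984) had 43.0, 28.5 and 37.0 CPM in WT, 41.4 to 48.1 with a median of 46.3 CPM in WT + NACET, 44.0, 44.8, 47.8 and 45.0 CPM in Akita and 41.8, 30.4, 37.8, 31.2 and 28.7 CPM in Akita + NACET, and it fell too (log2 fold change -0.42, SE 0.11, adjusted p = 0.0300). The ratio of Atp5g1 to Atp5g3 was 16.2 ± 2.86 Atp5g1 reads per 100 Atp5g3 reads in WT (SD, n = 3), 17.8 ± 1.49 in the 6 of WT + NACET, 15.8 ± 0.459 in the 4 Akita libraries and 16.9 ± 2.31 in the 5 of Akita + NACET. Most windows of Atp5g1 have an identical copy elsewhere, so its level and this ratio are uncertain. Atp5g2, with 0 to 16 reads per library, had 0.359, 0.719 and 0.723 CPM in WT, 0.286 to 0.908 with a median of 0.617 CPM in WT + NACET, 0.491, 0, 0.126 and 0.166 CPM in Akita and 0.345, 0.648, 0.638, 0.559 and 0.522 CPM in Akita + NACET. Its estimates ran opposite to those of the other 2 genes but were not called in Akita vs WT (adjusted p = 0.0893) or Akita + NACET vs Akita (adjusted p = 0.0809), although leaving out Akita 1 brought a call in both.

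The peripheral stalk, which holds the head still against the ring, has 4 genes (Atp5f1, Atp5h, Atp5j and Atp5o), of which Atp5o fell in Akita + NACET vs Akita (log2 fold change -0.38, SE 0.10, adjusted p = 0.0287). Of the small membrane subunits, Atp5k had 43.5, 40.8 and 42.2 CPM in WT, 41.0 to 84.8 with a median of 59.1 CPM in WT + NACET, 59.6, 48.8, 58.5 and 48.7 CPM in Akita and 38.4, 38.1, 45.2, 37.6 and 44.5 CPM in Akita + NACET. WT + NACET 3, 5 and 6 were the 3 highest libraries, the same that were high for Uqcr11 and that had shares outside exons of 10.4, 11.3 and 9.55%. Atp5k had the smallest p of complex V in WT + NACET vs WT without passing the test (log2 fold change 0.52, SE 0.18, adjusted p = 0.131), and Akita and Akita + NACET did not overlap (adjusted p = 0.118). Atp5s, Atp5sl and Cox4nb, which encode no subunit, had 0 calls in the 5 group comparisons. Cox4nb shares a promoter region with Cox4i1, their starts being 178 bases apart on chromosome 8 in mm9. Its log2 fold change in Akita + NACET vs Akita was -0.14 (SE 0.07), beside -0.26 (SE 0.14) for Cox4i1, and neither was called.

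Among the comparisons of 2 groups, most calls came from the treated groups. In Akita + NACET vs WT + NACET, 26 of the 46 genes were lower (56.5%) and 1 was higher, where 6.01% of all genes were higher and 7.26% lower, and the median log2 fold change was -0.32 against -0.000146 over all genes. By complex, 2 of 4 genes were lower in complex II, 5 of 8 in complex III, 8 of 15 in complex IV and 11 of 16 in complex V, where all 4 genes of the peripheral stalk were called. Among the called core subunits the largest differences were in Atp5k (log2 fold change -0.57, SE 0.15, adjusted p = 0.0207), Atp5e, the epsilon subunit (log2 fold change -0.54, SE 0.12, adjusted p = 0.00826), and Uqcrb (log2 fold change -0.43, SE 0.10, adjusted p = 0.00781), and the smallest adjusted p was that of Uqcrq (log2 fold change -0.41, SE 0.09, adjusted p = 0.00578). Sdha and Atp5b were not called there (adjusted p = 0.603 and 0.114). The count was 10 without Akita + NACET 5, 13 without WT + NACET 3 or Akita + NACET 4, and 17 without both libraries that stood apart.

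Whether NACET acted differently in the 2 genotypes was tested as an interaction of genotype with NACET, the log2 fold change in Akita minus that in WT. It was negative and called in 30 of the 46 genes (65.2%) and positive in 0, where 10.1% of all genes had a positive and 10.2% a negative interaction. The counts were 3 of 4 in complex II, 7 of 8 in complex III, 6 of 15 in complex IV, 13 of 16 in complex V and 1 of the 3 that encode no subunit (Atp5sl). The smallest adjusted p was that of Atp5g1 (log2 fold change -0.75, SE 0.17, adjusted p = 0.00627), with a log2 fold change by NACET of -0.42 in Akita and 0.34 in WT. For Uqcrb these were -0.47 and 0.21 (interaction -0.68, SE 0.15, adjusted p = 0.00702), and for Sdhd -0.35 and 0.23 (interaction -0.58, SE 0.14, adjusted p = 0.0111). Atp5g1 and Uqcrb are among the genes whose differences are uncertain because most windows of their transcripts have identical copies elsewhere. Sdha, Cox4i1, Cox5a and Cox7a1 were not called (adjusted p = 0.0523, 0.181, 0.0862 and 0.195). The count was 12 without WT 1, 13 without WT 2, 19 without WT + NACET 3 and 28 without both libraries that stood apart.

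Called genes were found with and without the nuclear respiratory factor 1 letters in their promoter window. Of the 15 tested genes with the letters, 7 fell in Akita + NACET vs Akita and 12 had a called interaction. Of the 22 with a window but without the letters, 5 and 12 did. Of all genes tested, 5.14% fell in Akita + NACET vs Akita and 10.2% had a negative interaction. The share among all genes with the letters was not counted. The 15 and the 12 with a called interaction include Atp5sl, which encodes no subunit. The 22 without the letters include Cox7b2, which did not pass the filter and could not be called. No test was made of these counts.

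Other genes of the same machinery were counted from lists. Cytochrome c1 (Cyc1) was not called in any comparison, cytochrome c (Cycs) was lower in Akita + NACET than in WT + NACET (log2 fold change -0.35, SE 0.09, adjusted p = 0.0176), and Ndufa4 fell in Akita + NACET vs Akita (log2 fold change -0.37, SE 0.11, adjusted p = 0.0450). Of 3 tested assembly factors of complex II, 1 fell in Akita + NACET vs Akita, 0 were called for genotype alone or for NACET in WT, and 3 of 3 were lower in Akita + NACET vs WT + NACET. The 1 was Sdhaf2, which attaches the flavin to Sdha. It had 55.7, 54.3 and 58.8 CPM in WT, 62.5 to 72.7 with a median of 68.4 in WT + NACET, 65.1, 63.6, 71.1 and 78.2 in Akita and 52.3, 52.6, 57.2, 54.3 and 41.5 in Akita + NACET, and fell without overlap between the last 2 groups (log2 fold change -0.43, SE 0.09, adjusted p = 0.0174). Assembly factors of complex III did not share the direction. Of 4 tested, Bcs1l, which inserts the Rieske protein, was lower in Akita than in WT (log2 fold change -0.42, SE 0.13, adjusted p = 0.0484), and Ttc19 was higher in Akita + NACET than in WT + NACET (log2 fold change 0.42, SE 0.10, adjusted p = 0.0101). Of 13 tested genes for complex IV assembly and copper delivery, 1 rose in Akita + NACET vs Akita, the copper-delivering Cox11 (log2 fold change 0.35, SE 0.10, adjusted p = 0.0379), and 2 were lower in Akita + NACET vs WT + NACET, Cox17 and Ccdc56. Of 6 genes for assembly and regulation of the ATP synthase, 0 were called in Akita + NACET vs Akita and 3 were lower in Akita + NACET vs WT + NACET. Without Akita 4, only 1 gene of all those tested was called in Akita + NACET vs Akita, and 0 with the covariate for reads outside exons. In Akita vs WT 0 were called without WT 1, without WT 2 or with this covariate.

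Over all genes tested, 3.96% rose in Akita vs WT and 4.51% in Akita + NACET vs Akita. In Akita + NACET vs WT + NACET 6.01% were higher and 7.26% lower. Regulators of the nuclear respiratory genes were counted beside these shares. Of 11 tested, Gabpb1, a GABP subunit that activates transcription, rose in Akita vs WT (log2 fold change 0.43, SE 0.11, adjusted p = 0.0263), and Pprc1, a coactivator of the PGC-1 family, rose in Akita + NACET vs Akita (log2 fold change 0.59, SE 0.14, adjusted p = 0.0207). Pprc1 had 13.7, 16.5 and 16.6 CPM in WT, 9.48 to 15.2 with a median of 11.7 in WT + NACET, 11.6, 11.6, 12.6 and 11.7 in Akita and 17.1, 17.6, 15.0, 18.4 and 21.4 in Akita + NACET, so that the Akita + NACET libraries lay above every Akita library and Akita + NACET 5 was the highest of all. In Akita + NACET vs WT + NACET 3 regulators were higher (Pprc1, Gabpb2 and Yy1) and 0 lower. Nrf1 and Gabpa themselves were not called in any comparison. Over all genes tested, only 1 was called in Akita + NACET vs Akita without Akita 4, and 0 in Akita vs WT without WT 1 or WT 2. With the covariate for reads outside exons, 0 were called in either comparison. Among the 6 subunits of complexes III to V encoded in mitochondrial DNA, only mt-Cytb and mt-Co1 passed the filter. The other 4 are listed at 0 in most libraries, and nothing is drawn from them. The mt-Co1 level was 837, 942 and 912 CPM in WT, 762 to 1096 with a median of 821 in WT + NACET, 1056, 1129, 1075 and 832 in Akita and 1423, 1039.9, 1216, 1239 and 1391 in Akita + NACET. It was higher in Akita + NACET than in WT + NACET (log2 fold change 0.55, SE 0.11, adjusted p = 0.00382), where 8 nuclear genes of complex IV were lower. Identical copies elsewhere in the genome were not searched for mt-Co1 and mt-Cytb, so the reads lost to them are not known. The mt-Cytb level was 6644, 6363 and 7968 CPM in WT, 7819.8 to 10281 with a median of 8434 in WT + NACET, 8259.97, 7993, 8820.4 and 8429.7 in Akita and 7527, 6541, 7437, 7462 and 6972 in Akita + NACET. All Akita + NACET libraries lay below those of Akita and of WT + NACET, without a call (adjusted p = 0.136 and 0.0506), and the interaction was negative, as for most nuclear subunits (log2 fold change -0.52, SE 0.14, adjusted p = 0.0157).

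Genes outside complexes II to V were counted as well. Of all genes, 5.14% fell in Akita + NACET vs Akita and 7.26% were lower in Akita + NACET vs WT + NACET. The shares that rose were 4.51% in Akita + NACET vs Akita and 3.96% in Akita vs WT. Of 36 nuclear subunits of complex I, 9 fell in Akita + NACET vs Akita (median log2 fold change -0.29) and 23 were lower in Akita + NACET vs WT + NACET (median -0.32), beside -0.28 and -0.32 for the 46 genes. Of 77 genes of cytosolic ribosomal proteins, 2 fell and 1 rose in Akita + NACET vs Akita (median -0.23), and 9 were lower in Akita + NACET vs WT + NACET (median -0.23). In both comparisons the ribosomal genes called as lower were a smaller share than among the 46 genes. Of the 10 rod markers, 3 rose in Akita vs WT, 6 fell in Akita + NACET vs Akita and 3 were lower in Akita + NACET vs WT + NACET. Counts for these lists are not given without the libraries that stood apart. Over all genes tested, only 1 was called in Akita + NACET vs Akita without Akita 4, and 1 without both libraries. Akita 4 was the highest library for rod markers and Akita + NACET 5 the lowest, while ganglion cell markers were lowest in Akita 4 (665 CPM against 1365 to 1599 CPM in the other Akita libraries). The part of these markers in the subunit levels was not tested.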

How the data were processed

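The authors sequenced poly(A) RNA of retinas as single-end reads, aligned them to mm9 with TopHat2 2.1.0 and Bowtie, and deposited 1 table per library of unnormalized read counts per gene from HTSeq 0.11.2, without strand and without reads that aligned to several places. These counts were used as deposited, with samples grouped by their titles. The 206 rRNA genes and the 5 summary entries (no feature, ambiguous and the like) were left out of library sizes and tests, and entries with no gene name held at most 0.00596% of counts. Genes were kept by filterByExpr (minimum count 10, minimum total 15), scaled by TMM and tested with the two-sided quasi-likelihood F test (edgeR 4.0.16, R 4.3.3), with 18 libraries in 1 fit of 4 groups. Values of p were adjusted by Benjamini-Hochberg over all 16183 genes, and an adjusted p of at most 0.05 counted as a call. No fold threshold was used. Libraries held 11495596 to 17814479 gene counts, and the biological coefficient of variation was 0.186. Alternatives were DESeq2 1.42.0, other scaling and filters, a fit of 2 groups, the replicate block, GC content and gene length corrections, a covariate for the reads outside exons, and leaving out each library. Leaving out both Akita 4 and Akita + NACET 5 was chosen after seeing the data. The procedure was run on simulated counts with a smaller spread between libraries than in these data and with no library set apart. That run therefore says nothing about calls that depended on single libraries. The genes and lists were chosen with earlier results of these data known. Values by library (for WT + NACET the range and median) are given for the 4 Sdh genes, for the gene with the highest level per length in each of complexes III, IV and V and its 2 genes with the smallest p for genotype and for NACET in either genotype, and for tissue-restricted isoforms with a mean of at least 1 CPM. Other genes are named as called or as examples. Transcript lengths, copies and coordinates come from an mm9 annotation and genome, and promoter windows from RefSeq on GRCm38.p6.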

Additional observations from a re-analysis of the deposited data

Results flagged for a closer look

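In 5 of 84 groups tested for a library far from the rest of its group, such a library was found, and chance alone flags about 1 group in 20. Sdhc was low in Akita + NACET 5, with 77.4 CPM against 129 in the next library. Cox8b was high in WT + NACET 5, with 10.04 CPM against 3.41 in the next. In Akita 4, Cox6c was low with 103 CPM against 128, Cox7a2l was low with 129.6 CPM against 142, and Atp5b was high with 1902 CPM against 1588. Thus 3 of the 5 values came from Akita 4, in both directions.

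The log2 fold change by NACET differed between Akita and WT, by edgeR's interaction test with adjusted p over all genes, for 16 of the 24 named genes, each with a negative value. Most of the 24 were named for small p-values in comparisons that make up the interaction, so this count is no independent evidence, and 10.2% of all genes had a negative call. In complex II the difference was -0.41 for Sdhb (adjusted p = 0.0462), -0.62 for Sdhc (adjusted p = 0.0251) and -0.58 for Sdhd (adjusted p = 0.0111). In complex III it was -0.52 for Uqcrq, -0.54 for Uqcrc1, -0.56 for Uqcrc2, -0.68 for Uqcrb, -0.53 for Uqcrfs1 and -0.47 for Uqcr11, with adjusted p from 0.00702 to 0.0319. In complex IV it was -0.51 for Cox8a, -0.54 for Cox6c and -0.44 for Cox7a2l, with adjusted p from 0.0210 to 0.0460. In complex V it was -0.64 for Atp5b, -0.71 for Atp5g3, -0.92 for Atp5k and -0.75 for Atp5g1, with adjusted p from 0.00627 to 0.0217. With a covariate for the reads outside exons, 0 of these were called.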

How the results depend on the processing

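The count of called genes among the 46 depended on the processing in 4 of the 6 comparisons. In Akita vs WT the count of 1 became 3 with DESeq2 (Cox7a1, Sdha and Uqcrc1), 3 with the gene length correction (Atp5g3, Cox7a1 and Sdha), 2 without both libraries that stood apart (Atp5g3 and Cox7a1), and 0 in a fit of only 2 groups and with the covariate. Leaving out each library in turn gave 0 to 3, with 0 without WT 1 or WT 2, 2 without Akita 1 or Akita 2 and 3 without Akita + NACET 5. In Akita + NACET vs Akita the count of 13 became 22 with DESeq2, 21 with the GC content correction, 1 in a fit of 2 groups, 0 with the covariate and 0 without both libraries, and leaving out each library gave 0 to 24. In Akita + NACET vs WT + NACET the count of 27 became 13 with the gene length correction, 17 without both libraries and 0 with the covariate, and leaving out each library gave 10 to 29, with 13 without WT + NACET 3 or Akita + NACET 4, 15 without WT + NACET 5 or Akita + NACET 2 and 18 without WT + NACET 6. The interaction count of 30 became 0 with the covariate, and leaving out each library gave 12 to 31, with 19 without WT + NACET 3 and 20 without Akita 1 or Akita 3. In a fit with the replicate block the counts were 1 in Akita + NACET vs Akita (Uqcrb) and 17 in Akita + NACET vs WT + NACET, where the numbers do not pair the samples: same-numbered libraries had correlations of their deviations of -0.33 to 0.34 (median -0.0014, 22 pairs), against -0.45 to 0.45 for other pairs. The counts in WT + NACET vs WT and in Akita + NACET vs WT were 0 under every alternative run. The cause of these changes was not tested. Of 1242 values of single called genes and of the median fold changes under alternatives, 1013 kept direction and call, 224 lost the call and the other 5 were medians that moved under the covariate, of which the one in Akita vs WT turned from 0.17 to -0.058. No estimate of a called gene changed direction. No filter on low counts gave 10 in Akita + NACET vs Akita. Low read counts limit Atp5g2, with 0 to 16 reads, and the restricted isoform Cox8b, with 3 to 169.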
